A study of Mus musculus with 20 samples.

Results

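Cathepsins are proteases of the lysosome, and 9 of their genes, Ctsa, Ctsb, Ctsc, Ctsd, Ctsh, Ctsk, Ctsl, Ctss and Ctsz, are described here across 20 libraries of polyA RNA from eWAT of the mouse, the fat depot around the epididymis. They are 9 of the 55401 genes of the deposited count table. They were selected on measured values of the diet contrast, Ctsd and Ctsl being higher and Ctsc lower under restriction. The values of these 9 genes by diet are therefore given as a description, with no p-value. Of the libraries, 10 came from mice labelled Control diet and 10 from mice labelled Random Food Restriction, which joined intermittent fasting with a 5% cut in calories. A further label marks spermatocyte contamination, Yes in 7 Control and 3 restricted libraries and No in the other 3 and 7. All groups are eWAT by their tissue label, although the extraction text names QUAD, and no label gives strain, age or sex. The labels do not say whether libraries are separate animals, so p-values measure the spread between these libraries.

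Most cathepsins are made as inactive precursors, carried to lysosomes by mannose 6-phosphate receptors or sortilin, and activated there in the acid that the vacuolar proton pump maintains. Cathepsin D is an aspartic endopeptidase, cathepsin A a serine carboxypeptidase that also protects other lysosomal enzymes, and the other 7 are cysteine proteases. Cathepsins B and L degrade a broad range of lysosomal proteins, cathepsin Z removes single residues from the carboxyl end, and cathepsin H from the amino end. Cathepsin C takes dipeptides from the amino end and thereby activates some serine proteases of mast cells, neutrophils and cytotoxic lymphocytes. Cathepsin S cuts the invariant chain in antigen-presenting cells, and cathepsin K cuts collagen and is best known from osteoclasts. In fat tissue adipocytes, macrophages and stromal cells all hold lysosomes.

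Library totals ran from 14306528 to 44061508 counts. The 8 adipocyte markers summed to between 31546 and 46135 CPM (counts scaled to the library total) and were abundant in all 20 libraries. Control libraries 1 to 5 and restricted library 1 also held skeletal muscle transcripts, with 8 markers summing to 929 to 3232 CPM against 17.1 to 99.998 in the other 14 libraries. The 9 germ cell markers summed to 2.87 to 37.1 CPM in libraries marked No and 2.66 to 105 in those marked Yes, so the label did not separate them. In bulk tissue, fewer cells of a type and less RNA per cell cannot be told apart. This holds for every macrophage value below: the 12 macrophage markers summed to 1403 to 1961 CPM in Control and 863 to 1527 in restricted libraries, and 10 of the 12 fell by diet. RNA integrity numbers were 7.41 ± 0.267 (SD, n = 9) under Control diet and 7.17 ± 0.399 (SD, n = 8) under restriction.

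Promoter sequences were taken from RefSeq (GRCm38.p6), which gave a window for 7 of the 9 genes, not for Ctsb and Ctsh. Each window runs from 250 bases before to 50 bases after a start annotated in RefSeq, which is not always the start of the deposited gene. The RefSeq start lies 211 bases downstream of the deposited start in Ctsd and 370 in Ctsl, so most of the Ctsd window and all of the Ctsl window lie inside the deposited gene, while the starts of Ctsc are the same. The windows of the 3 genes named in the choice of members are shown on the strand of the gene, 5′ to 3′. Capitals mark CACGTG, the E-box core, and where it is complete TCACGTGA, the core of the CLEAR element to which the lysosomal regulator TFEB binds. Ctsd spans chr7:142387778-142388077 (minus strand), Ctsl chr13:64370471-64370770 (minus strand) and Ctsc chr7:88277835-88278134 (plus strand).
Ctsd: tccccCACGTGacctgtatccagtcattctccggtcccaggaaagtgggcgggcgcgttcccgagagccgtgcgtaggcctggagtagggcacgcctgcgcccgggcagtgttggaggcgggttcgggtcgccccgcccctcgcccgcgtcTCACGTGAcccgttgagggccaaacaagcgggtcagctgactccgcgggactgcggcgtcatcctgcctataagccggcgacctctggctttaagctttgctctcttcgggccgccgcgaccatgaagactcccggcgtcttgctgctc
Ctsl: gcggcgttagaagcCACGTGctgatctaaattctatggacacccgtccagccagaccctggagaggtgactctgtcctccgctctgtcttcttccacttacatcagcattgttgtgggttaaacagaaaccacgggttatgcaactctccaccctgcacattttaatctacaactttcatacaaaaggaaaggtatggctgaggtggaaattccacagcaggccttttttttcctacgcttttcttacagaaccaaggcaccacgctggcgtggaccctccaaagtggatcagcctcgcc
Ctsc: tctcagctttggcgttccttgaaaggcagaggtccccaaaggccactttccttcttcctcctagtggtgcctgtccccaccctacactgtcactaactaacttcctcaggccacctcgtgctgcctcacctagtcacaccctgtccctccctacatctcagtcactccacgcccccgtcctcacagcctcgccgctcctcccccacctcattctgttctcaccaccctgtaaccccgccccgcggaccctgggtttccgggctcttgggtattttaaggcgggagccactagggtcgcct
The Ctsd window holds CACGTG beginning 245 and 98 bases before the RefSeq start, the nearer within TCACGTGA. The Ctsl window holds 1 CACGTG, 236 bases before the RefSeq start, and no TCACGTGA, while the Ctsc window holds neither. One of the 2 Ctsa windows (chr2:164833523-164833822) holds TCACGTGA 2 times, with CACGTG beginning 12 bases before and 5 bases after a RefSeq start that lies 900 bases inside the deposited gene, and the windows of Ctsk, Ctss and Ctsz hold neither motif. Searched on both strands (each motif is its own reverse complement, and CACGTG lies within TCACGTGA), CACGTG was in a window of 3 of 7 cathepsins and TCACGTGA of 2 of 7. Of all 27025 genes with a window 8.09% and 1.12% held them, and of the 11586 such genes tested here 11.3% and 2.01%, while over all 32817 windows the shares were 7.15% and 0.975%. Other lysosomal lists held them too: CACGTG was in 5 of 9 genes for sorting and processing, 4 of 11 of the proton pump and 5 of 18 other lysosomal proteins, and TCACGTGA in 2, 3 and 2 of these. A match describes the letters in the window, and binding was not measured.

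The genes lie on 6 chromosomes, and the coordinates span whole genes, exons and introns, on GRCm38 as deposited. Ctsd is at chr7:142375911-142388038 (minus strand), Ctsc at chr7:88278085-88310888 (plus) and Ctsl at chr13:64359337-64370890 (minus). Ctsb is at chr14:63122462-63145923 (plus), Ctsh at chr9:90054152-90076089 (plus), Ctsa at chr2:164832873-164840019 (plus) and Ctsz at chr2:174427493-174439039 (minus). Ctsk (chr3:95499256-95509362, plus) and Ctss (chr3:95526786-95556400, plus) are neighbours, 17.4 kb apart. Exons of Ctsa overlap those of Pltp, a phospholipid transfer protein, by 311 bases on the opposite strand, and Pltp held 73.8% as many counts as Ctsa. An exon overlap of 808 bases of Ctsd with Gm49369, on the same strand, came with 0 counts for the latter in the table. Overlaps with Fdft1 (Ctsb), Neurl2 (Ctsa) and Nelfcd (Ctsz) came with 4.18%, 1.89% and 23.2% as many counts. No source used here states the strand setting of the counting, so reads of these overlaps cannot be told apart.

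Ctsd, Ctsl, Ctsb and Ctsz had higher means in restricted libraries, and Ctsc, Ctsh, Ctss and Ctsk lower ones, while Ctsa was close to level. All 9 passed the filter on low counts. In edgeR's quasi-likelihood fit over 15986 genes at an adjusted p under 0.05, 4 of the 9 were called higher and 3 lower, where 6.31% of all genes were called higher and 7.29% lower. The choice of the members rests on this contrast, so nothing is read from these counts. The diet groups of 1 of the 9, Ctsc, did not overlap, where 0.588% of genes had all restricted libraries below all Control ones and 0.363% all above.

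**Figure D1:**
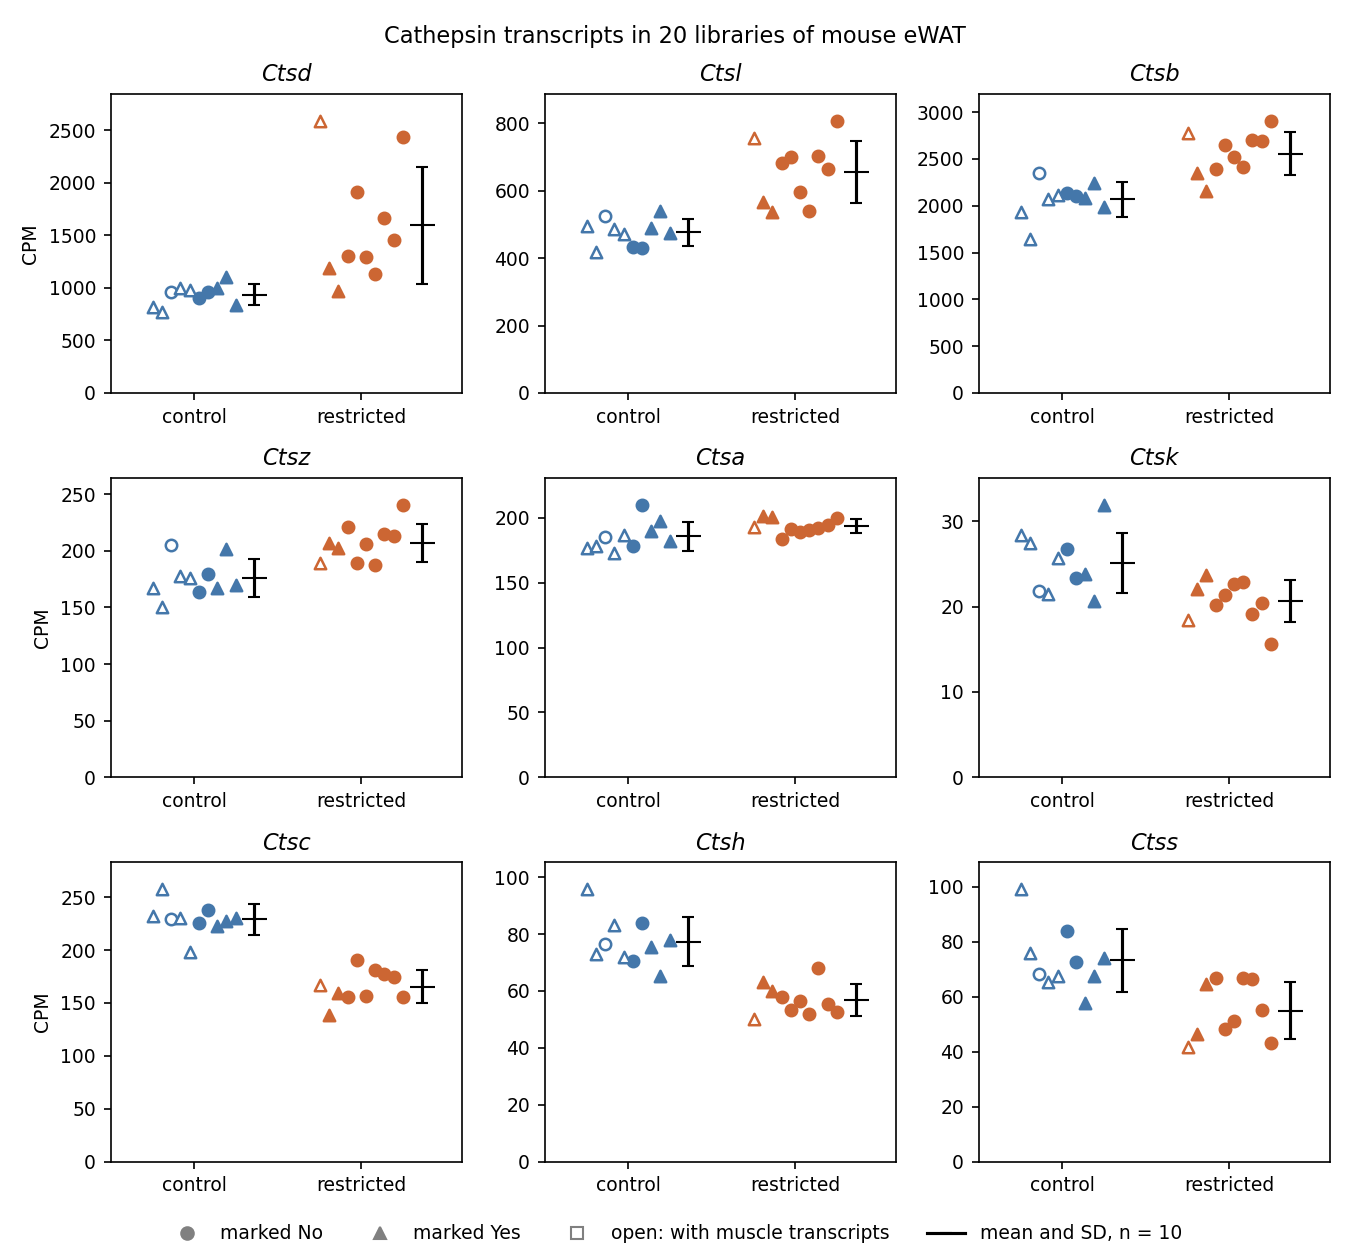
CPM of the 9 cathepsins in each library, control in blue and restricted in orange, with triangles for libraries marked Yes, circles for those marked No, open symbols for libraries with muscle transcripts, and mean and SD over 10 libraries in black. Restricted libraries of Ctsd spread from 972 to 2589 CPM, and all restricted libraries of Ctsc lie below all control libraries.

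Ctsd ran from 769 CPM through a median of 959 to 1099 in Control libraries, and from 972 through 1379 to 2589 in restricted ones. Only restricted library 3, the lowest, lay within the Control range, and the other 9 were above it. The highest were restricted libraries 1 (2589 CPM), 10 (2437) and 5 (1915). The means were 933 ± 99.9 and 1595 ± 555 CPM (SD, n = 10 each), with coefficients of variation of 10.7% and 34.8%, and the log2 fold change was 0.77 ± 0.16 (SE). The spread of Ctsd within the restricted group was thus the widest of the 9 genes. Without restricted library 1 the fold change was 0.54, and without the 6 libraries with muscle transcripts it was 0.50 ± 0.19 (SE) and no longer called. The macrophage marker sum of restricted libraries 1, 5 and 10 was 863, 1004 and 1017 CPM, the 3 lowest of all 20. Their progenitor marker sums (827, 1018 and 1014 CPM) were also the 3 lowest. These sums are scaled to the plain total, whereas Ctsd is also scaled by the TMM factor, a scaling between libraries. That factor was 0.873, 0.924 and 0.881 in these libraries against 1.02 in restricted library 2, so neither ranking carries over to the scale of Ctsd. The part of these markers in the diet difference of Ctsd was not tested. The relation of Ctsd to the macrophage markers within 1 diet and label is given below.

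Ctsl ran from 418 CPM through a median of 481 to 539 in Control libraries and from 537 through 674 to 808 in restricted ones. Restricted libraries 3 and 7 lay within the Control range and the other 8 above it, with library 10 the highest. The means were 476 ± 39.5 and 655 ± 92.8 CPM (SD, n = 10 each), a log2 fold change of 0.45 ± 0.083 (SE). Without the 6 libraries with muscle transcripts it was 0.42 ± 0.11.

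Ctsb, the most counted of the 9, ran from 1649 CPM through 2092 to 2351 in Control and from 2156 through 2586 to 2908 in restricted libraries. The log2 fold change was 0.26 ± 0.068 (SE), and 8 of 10 restricted libraries lay above all Control ones. Ctsz ran from 150.1 through 173 to 205 CPM in Control and from 188 through 206 to 240.4 CPM in restricted libraries, a log2 fold change of 0.20 ± 0.061 (SE). In Ctsz 6 restricted libraries lay above all Control ones and 4 within their range. Library 10 was the highest restricted library in Ctsb and Ctsz as it was in Ctsl. Neither gene kept its call without the libraries with muscle transcripts, at log2 fold changes of 0.21 and 0.25.

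Ctsc ran from 199 CPM through a median of 230 to 257 in Control libraries and from 139 through 163 to 190.4 in restricted ones. The 2 ranges were apart by less than 10 CPM, between Control library 5 and restricted library 5. The means were 229 ± 14.4 and 166 ± 15.3 CPM (SD, n = 10 each), and the log2 fold change was -0.50 ± 0.058 (SE). It lay between -0.56 and -0.44 over 34 alternatives. Ctsc was called in each of them, but it was chosen on this contrast, so nothing is read from its calls.

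Ctsh ran from 65.3 CPM through 76.0 to 95.8 in Control and from 50.3 through 55.9 to 68.3 in restricted libraries. Only restricted library 8 lay within the Control range, and the log2 fold change was -0.44 ± 0.072 (SE). Ctss ran from 57.8 through 70.3 to 99.1 CPM in Control and from 41.6 through 53.1 to 66.7 CPM in restricted libraries, with 4 restricted libraries inside the Control range and 6 below it. Its log2 fold change was -0.46 ± 0.11 (SE), and -0.38 ± 0.12 without the libraries with muscle transcripts, where it was not called. Restricted library 1, the lowest in macrophage markers, was the lowest in both genes, and restricted library 8, the highest restricted library in those markers, was the highest in Ctsh. Other libraries did not follow this order. Restricted library 8 was at 66.4 CPM in Ctss, against 66.7 in library 7. Library 7, with a macrophage marker sum of 1297 CPM, was at 51.7 CPM in Ctsh. Library 5, with a sum of 1004 CPM, was the highest restricted library in Ctsc, at 190.4 CPM. Cd68, a macrophage marker, itself fell from 46.3 ± 4.99 to 34.6 ± 2.96 CPM (SD, n = 10 each), a log2 fold change of -0.49 (edgeR adjusted p = 3.71e-05). The part of the macrophage transcripts in the values of Ctsc, Ctsh and Ctss was not tested by diet.

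Ctsk ran from 20.6 CPM through 24.7 to 31.9 in Control and from 15.6 through 20.9 to 23.7 in restricted libraries, so 5 restricted libraries lay within the Control range. Its log2 fold change of -0.25 ± 0.089 (SE) was not called with the contamination label in the fit and was called without it. Ctsa ran from 173 through 184 to 209.97 CPM in Control and from 184 through 193 to 201 CPM in restricted libraries, all within the Control range. Its log2 fold change was 0.06 ± 0.042 (SE), and its coefficient of variation of 2.92% in restricted libraries was the smallest of the 9.

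The number of the 9 called by diet differed between fits, and each is given beside the share of all genes called. In the reported fit 7 of 9 were called where 13.6% of all genes were. DESeq2 (16.7%), RLE factors (13.9%), upper-quartile factors (13.4%), voom (13.4%) and a minimum count of 50 (17.5%) called the same 7. Ctsk was the eighth without the contamination label in the fit (16.4% of genes). With no filter on low counts 5 were called (4.08% of genes), with germ cell and epididymis indices in place of the label 5 (6.35%), and with the replicate number as a block 4 (8.68%). In the 17 libraries with an RNA integrity number 6 were called (8.93% of genes), and 3, namely Ctsc, Ctsd and Ctsl, with that number as a term (2.42%). The 14 libraries without muscle transcripts (5.59%) and the 10 marked No (2.41%) each called Ctsl, Ctsc and Ctsh, and the 10 marked Yes (1.4%) called Ctsc alone. All 9 kept the sign of their difference in each of these.

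**Figure D2:**
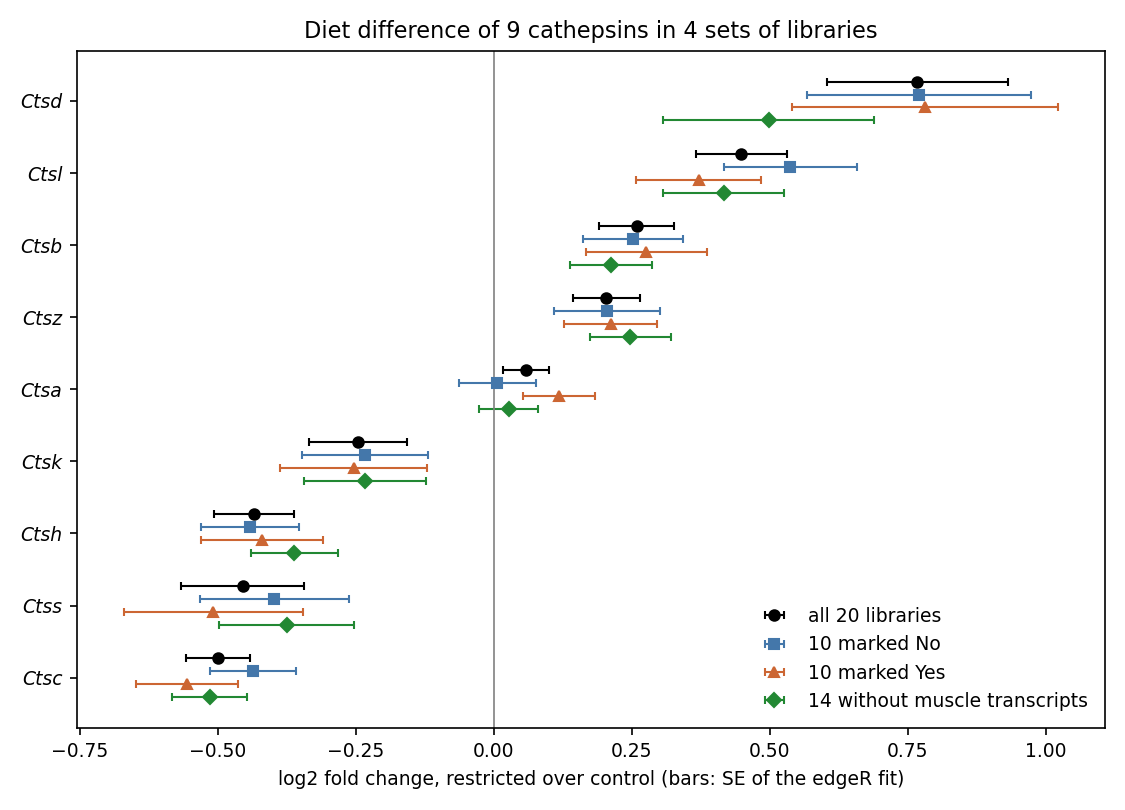
Log2 fold change of each cathepsin, restricted over control, with the SE of the edgeR fit as bars, in all 20 libraries, in the 10 marked No, the 10 marked Yes and the 14 without muscle transcripts. Each gene lies on 1 side of 0 in all 4 sets, and Ctsd moves from 0.77 to 0.50 without the libraries that hold muscle transcripts.

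Levels between genes were compared as CPM per kilobase of the deposited gene length. Ctsd led, at 397 ± 42.5 CPM per kilobase in the Control group and 678 ± 236 in the restricted group (SD, n = 10 each), and Ctsb followed at 342 ± 31.1 and 422 ± 37.9. Ctsd was above Ctsb in every library, but their ranges over libraries overlapped in each diet. Ctsz (122 ± 11.7 and 144 ± 11.4) and Ctsl (73.4 ± 6.09 and 101 ± 14.3 CPM per kilobase) came next, in that order. Below them in Control libraries stood Ctss at 53.9, Ctsc at 39.5, Ctsa at 39.4, Ctsh at 17.2 and Ctsk at 16.6 CPM per kilobase. Of these, Ctsc and Ctsa, and Ctsh and Ctsk, changed places between libraries, each pair keeping its order in only 6 of 10. The order depended on the length used. Per kilobase of the principal transcript Ctsd and Ctsb were level in Control libraries, at 439 and 436, with Ctsd above Ctsb in 6 of 10, and in restricted libraries the ranges of Ctsz and Ctsl, apart with the deposited length, overlapped. Ctsc and Ctsh moved most, since their deposited lengths are 2.33 and 2.78 times that of the principal transcript. On that scale Ctsc was at 91.9 in Control and 66.4 in restricted libraries, above Ctsl in Control and below it in restricted libraries, and Ctsh was at 47.8 and 35.2.

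As a share of the tested total times the TMM factor, the 9 genes together held 0.424% ± 0.030 under Control diet. Under restriction they held 0.550% ± 0.085 (SD, n = 10 each). These are not plain shares of the tested counts. The TMM factor was above 1 in all Control libraries and below 1 in most restricted ones. It thus lowered every Control value and raised most restricted ones. Of the summed CPM per kilobase of the 9 genes, Ctsd made up 33.1% to 38.3% in Control and 36.3% to 57.0% in restricted libraries. Its largest shares were in restricted libraries 1, 10 and 5. Ctsb had a mean share of 31.0% ± 1.11 in Control and 29.0% ± 2.89 in restricted libraries although its own level was higher, and the share of Ctsl was 6.68% ± 0.393 and 6.87% ± 0.476. Ctsc went from 3.06% to 4.71% in Control to 1.39% to 2.51% in restricted libraries, 2 ranges that did not overlap. Within a library the log2 ratio of Ctsd to Ctsc counts was 1.58 to 2.30 in Control and 2.61 to 3.97 in restricted libraries. The ratios of Ctsl to Ctsc (0.70 to 1.25 and 1.58 to 2.37) and of Ctsb to Ctsc (2.68 to 3.42 and 3.74 to 4.22) did not overlap either. These ratios need no scaling between libraries, and their direction was fixed by how the genes were chosen.

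**Figure D3:**
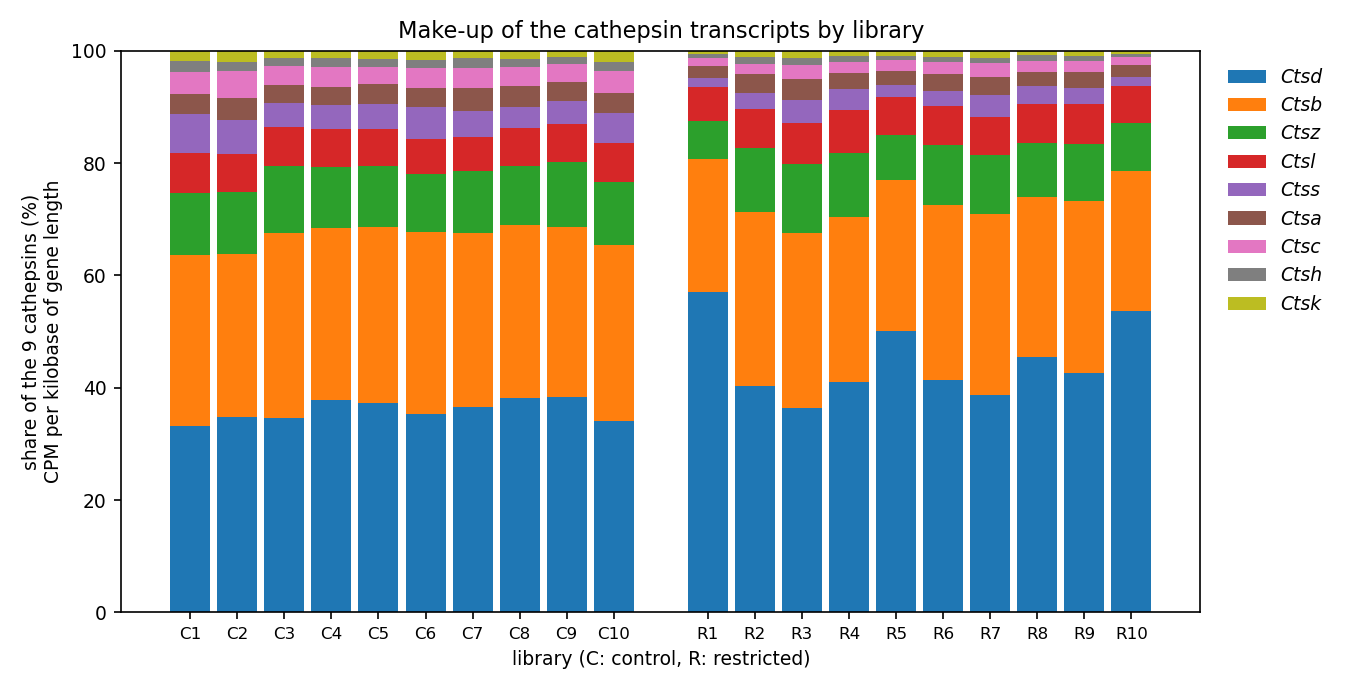
Share of each cathepsin in the summed CPM per kilobase of the 9, 1 bar per library, control libraries C1 to C10 and restricted libraries R1 to R10. The Ctsd part is 33.1% to 38.3% in control libraries and reaches 57.0% in R1, and the Ctsc part is smaller in every restricted library than in any control library.

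The contamination label was tested, since it had no part in the choice of the genes. None of the 9 was called, at adjusted p-values in edgeR's test of 0.501 or more and with 0 of 9 at an unadjusted p under 0.05, where 5.3% of the 15986 genes were called, 5.04% higher and 0.269% lower in libraries marked Yes. DESeq2 and limma-voom also called none of the 9. With diet in the fit, the log2 difference of libraries marked Yes from those marked No ran from -0.12 ± 0.068 (SE) in Ctsb to 0.09 ± 0.089 in Ctsk, and was -0.02 ± 0.16 in Ctsd and -0.08 ± 0.058 in Ctsc. The unadjusted group means differed more, for example 1403 ± 488 CPM marked No and 1125 ± 530 marked Yes in Ctsd (SD, n = 10 each), where the diets are not evenly spread over the labels.

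The diet means of Ctsd differed little between the labels. Ctsd was at 941 ± 30.6 CPM in Control libraries marked No (SD, n = 3) and 1600 ± 452 in restricted ones (n = 7), and at 929 ± 121 (n = 7) and 1583 ± 878 (n = 3) in those marked Yes. Ctsc was at 231 ± 6.38 and 170.2 ± 14.1 CPM in libraries marked No and at 228 ± 17.3 and 155 ± 14.4 in those marked Yes. The difference between labels in the log2 fold change by diet was tested by the product of diet and label. It was 0.00 ± 0.33 (SE) in Ctsd, -0.12 ± 0.11 in Ctsc and -0.17 ± 0.16 in Ctsl. None of the 9 was called (edgeR adjusted p at least 0.867), as was 0% of all genes, with 871 of 15986 genes, and 0 of the 9, at an unadjusted p under 0.05. DESeq2 called 1 gene and limma-voom 0 for this term, neither count including a cathepsin. The interval of 2 SE to either side of this term reached sizes above the diet difference itself in Ctsa, Ctsb, Ctsk, Ctsl, Ctss and Ctsz.

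Ctsd, Ctsl and Ctsb varied together between libraries. After the means of diet and label were taken off, Pearson's r of log2 CPM over 20 libraries was 0.84 for Ctsd and Ctsl, 0.82 for Ctsd and Ctsb and 0.79 for Ctsb and Ctsl. Without restricted library 1 these were 0.84, 0.76 and 0.75. Ctsk went against them, at -0.73 with Ctsd and -0.70 with Ctsl, as did Ctss with Ctsd (-0.68). For Ctsc r was 0.07 with Ctsd and 0.00 with Ctsl. These points share their library, its depth and its scaling, and the values describe the 20 libraries with no test.

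**Figure D4:**
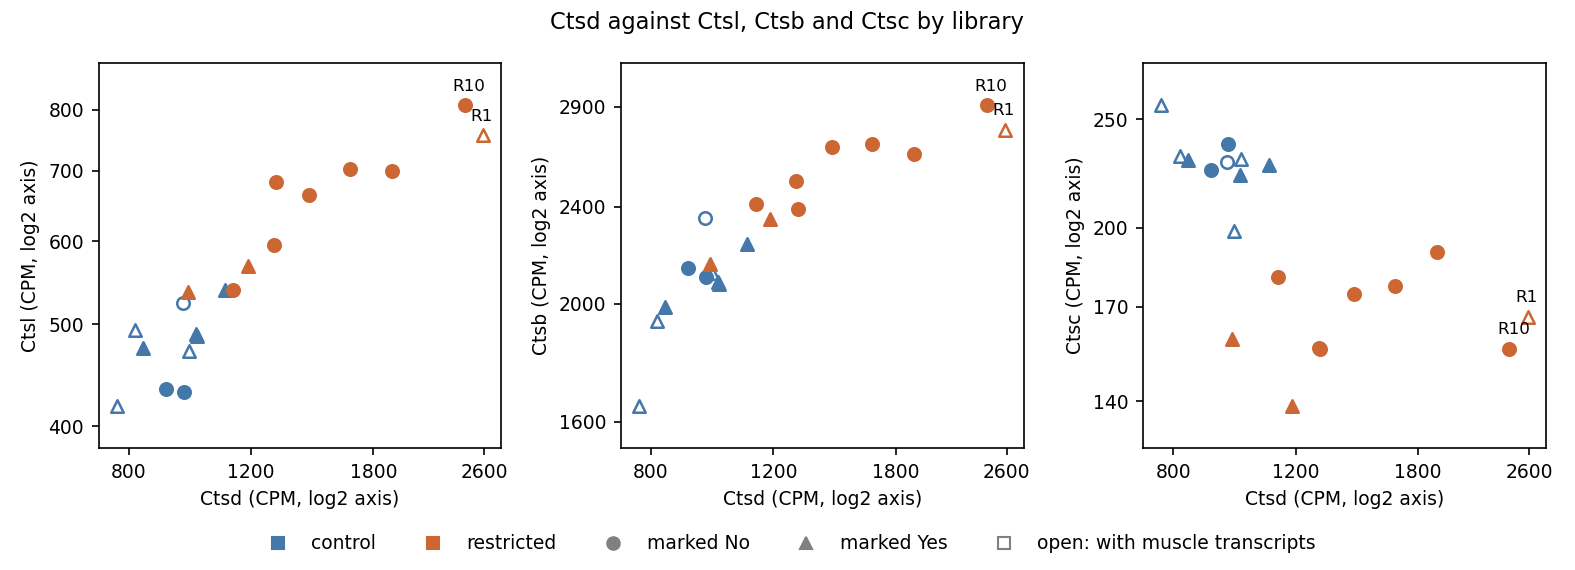
Ctsd against Ctsl, Ctsb and Ctsc, 1 point per library, in CPM on log2 axes, control in blue and restricted in orange, with symbols as for the values by library and restricted libraries 1 and 10 named. Libraries high in Ctsd are high in Ctsl and Ctsb, whereas Ctsc separates by diet. Within 1 diet and label, r of Ctsd and Ctsc was -0.022 in restricted libraries marked No and -0.569 in Control libraries marked Yes.

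Among 9493 genes with a mean of at least 10 CPM, those most like each of 3 cathepsins in the same measure over 20 libraries were named. For Ctsd they were Lrpap1 (0.98), a chaperone of lipoprotein receptors, Ndufa10 (0.95), a complex I subunit, Aldh1l1 (0.95), a folate enzyme, Tecr (0.95), an enzyme of fatty acid elongation, and Pygl (0.95), a glycogen phosphorylase. Without restricted library 1 their r with Ctsd lay between 0.918 and 0.980. For Ctsl they were Npc2 (0.97), the sterol carrier of the lysosome, Tmem242 (0.89), C1rl (0.89), Gm2a (0.88), the activator protein of GM2 ganglioside breakdown, and Clptm1l (0.88). For Ctsc the likest genes were less close: Cdk19 (0.77), a kinase of the Mediator complex, Abhd13 (0.76), Prcp (0.68), a lysosomal carboxypeptidase, Phtf1 (0.68) and Stk17b (0.67).

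Relations within 1 diet and label were tested in the 2 strata with 7 libraries each, restricted marked No and Control marked Yes, 4 of the latter holding muscle transcripts. Of 24 relations, 4 had an unadjusted p under 0.05 by exact two-sided permutation of Pearson's r, and 0 passed after adjustment, where the smallest p such a stratum allows is 0.000397. In restricted libraries Ctsd and Ctsl gave r = 0.897 and rho = 0.929 (exact permutation p = 0.00575 and 0.00675, adjusted p = 0.138 and 0.162), and r = 0.841 without restricted libraries 10 and 5. In Control libraries they gave r = 0.749 and rho = 0.571 (exact permutation p = 0.0343 and 0.2, adjusted 0.206 and 0.566), and r = 0.758 without Control libraries 1 and 2. Ctsd and Ctsc gave r = -0.022 and rho = -0.143 in restricted libraries (exact permutation p = 0.963 and 0.783, adjusted 0.963 and 0.854), and r = 0.165 without restricted libraries 10 and 5. The same pair gave r = -0.569 and rho = -0.571 in Control libraries (exact permutation p = 0.173 and 0.2, adjusted 0.460 and 0.566), and r = -0.065 without Control libraries 2 and 1.

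The same strata related the cathepsins to an index of the 12 macrophage markers, the mean of their log2 CPM. In restricted libraries Ctsh gave r = 0.911 and rho = 0.679 (exact permutation p = 0.0121 and 0.110, adjusted 0.145 and 0.526), and r = 0.658 without libraries 8 and 5. Ctss gave r = 0.752 and rho = 0.714 (exact permutation p = 0.0331 and 0.0881, adjusted 0.206 and 0.526), and r = 0.80 without the same libraries. Ctsd gave r = -0.345 and rho = -0.321 (exact permutation p = 0.460 and 0.498, adjusted 0.737 and 0.834), and r = -0.796 without the same libraries. In Control libraries marked Yes, Ctsd gave r = -0.605 and rho = -0.536 (exact permutation p = 0.151 and 0.236, adjusted 0.460 and 0.566). Without Control libraries 5 and 1 this r was -0.584. For Ctsc, restricted libraries gave r = 0.051 and rho = -0.107 (exact permutation p = 0.943 and 0.840, adjusted 0.963 and 0.876). In Control libraries marked Yes, Ctsc gave r = 0.600 and rho = 0.536 (exact permutation p = 0.146 and 0.236, adjusted 0.460 and 0.566), which rested on Control libraries 5 and 1, since r was 0.237 without them. There Ctsh gave r = 0.624 and rho = 0.643 (exact permutation p = 0.131 and 0.139, adjusted 0.460 and 0.556). Ctss gave r = 0.501 and rho = 0.321 there (exact permutation p = 0.251 and 0.498, adjusted 0.547 and 0.834). Without Control libraries 5 and 1, r was 0.211 for Ctsh and -0.101 for Ctss.

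Of 107 listed genes that act with the cathepsins, 89 were tested, of which 15 rose and 12 fell by diet, where 6.31% of all genes tested rose and 7.29% fell. Their median log2 fold change was 0.04, against 0.01 over all genes tested. These lists were not used to choose the 9 genes, but they were themselves chosen with earlier results of these data known. The counts and medians by list are therefore a description. All p-values below are adjusted over all genes. Of 14 other cathepsins 4 passed the filter. Ctsf, a cysteine cathepsin, rose from 77.1 ± 10.7 to 104.5 ± 10.7 CPM (SD, n = 10 each), a log2 fold change of 0.38 ± 0.077 (SE, edgeR adjusted p = 0.00232), and kept its call without any single library. Ctse, at 0.555 and 0.319 CPM, fell by 0.86 in log2 units (adjusted p = 0.0326), and Ctsw, the cathepsin of cytotoxic lymphocytes, fell by 0.69 (adjusted p = 0.0484). Ctse passed the filter in only 16 of the 20 fits that each left out 1 library. Of these, it lost its call without Control library 3 or restricted libraries 1 or 2. Ctsw lost its call in 16 of 20 fits that each left out 1 library, and its adjusted p reached 0.118 without Control library 6. The 7 markers of T and NK cells summed to 5.17 to 17.5 CPM in Control and 4.72 to 8.47 in restricted libraries, with a median log2 fold change of -0.55, of which 1, Cd4, fell (adjusted p = 0.0080) and 0 rose. Their part in the Ctsw value was not tested. Ctso was at 72.4 and 73.3 CPM (adjusted p = 0.466).

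Of 11 inhibitors, 5 passed the filter, 2 of which rose and 0 fell. Ctla2a, an inhibitor that resembles the propeptide of cathepsin L, rose from 15.4 ± 3.08 to 23.6 ± 3.15 CPM (SD, n = 10 each), a log2 fold change of 0.52 ± 0.10 (SE, edgeR adjusted p = 0.00187). Cstb, a cytosolic cystatin, rose from 51.3 to 57.9 CPM, a log2 fold change of 0.21 ± 0.049 (adjusted p = 0.00803). Both calls held without the libraries with muscle transcripts. Cst6 (log2 fold change -1.21, adjusted p = 0.303) and Ctla2b (-0.08, adjusted p = 0.804) were not called.

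Of 11 genes for sorting and processing, 3 rose and 1 fell, with a median log2 fold change of 0.10. Igf2r, the cation-independent mannose 6-phosphate receptor, rose from 117 ± 6.08 to 143 ± 13.0 CPM (SD, n = 10 each), a log2 fold change of 0.25 ± 0.053 (SE, edgeR adjusted p = 0.00341). Glb1, the beta-galactosidase that cathepsin A protects, rose from 42.2 to 52.8 CPM (log2 fold change 0.30, adjusted p = 0.0046). Gnptab, which makes the mannose 6-phosphate tag, rose by 0.31 on the log2 scale (adjusted p = 0.0357), but by 0.15 without restricted library 1 (adjusted p = 0.150). Its call was also lost without Control library 2 or 7 or restricted library 10. Lgmn, the asparaginyl endopeptidase that trims cathepsin precursors, fell from 103 ± 12.3 to 84.3 ± 8.63 CPM (SD, n = 10 each; log2 fold change -0.32, edgeR adjusted p = 0.00544).

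Of 10 serine proteases listed as targets of cathepsin C, 8 passed the filter, and 4 fell and 0 rose, with a median log2 fold change of -0.73. Whether cathepsin C activates each listed member, tryptases included, was not measured. The 4 are proteases of mast cells. Mcpt4 fell from 11.3 ± 2.46 to 4.01 ± 0.737 CPM (SD, n = 10 each), a log2 fold change of -1.49 ± 0.14 (SE, edgeR adjusted p = 5.29e-06). Tpsb2, a tryptase, fell by 1.36 in log2 units (adjusted p = 7.94e-06), Cma1, a chymase, by 1.35 (adjusted p = 1.8e-05), and Tpsab1 by 1.05 (adjusted p = 0.0108). All 4 calls held without any single library, but that of Tpsab1 did not without the 6 libraries with muscle transcripts (adjusted p = 0.0679). The 5 other mast cell markers summed to 19.1 to 37.0 CPM in Control and 16.8 to 35.01 in restricted libraries. Of the 3 tested 1 fell and 0 rose, namely Cpa3, the mast cell carboxypeptidase, by 0.91 in log2 units (adjusted p = 0.000143). The other 2, Kit and Hdc, had log2 fold changes of 0.08 and 0.19 (adjusted p = 0.736 and 0.598). Hdc was also higher by 1.77 in log2 units in libraries marked Yes (adjusted p = 2.4e-06) and is part of the sum. Cpa3, Kit, Hdc and Cd4 were named after their values were seen. Their part in the protease values was not tested. Near-identical mast cell proteases can share reads, so counts of single members are uncertain.

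Of 7 substrates 6 were tested, and 4 fell and 0 rose. Cd74, the invariant chain that cathepsin S cuts, fell from 987 ± 92.7 to 697 ± 80.2 CPM (SD, n = 10 each), a log2 fold change of -0.52 ± 0.076 (SE, edgeR adjusted p = 0.000148). The dendritic cell markers, of cells that hold Cd74 and Ctss, summed to 45.2 to 62.7 CPM in Control and 28.5 to 46.5 in restricted libraries, with 3 of 7 falling, and their part was not tested. Of the matrix proteins, Fn1 fell by 0.56, Col1a2 by 0.40 and Eln by 0.46 in log2 units (adjusted p = 0.0102, 0.0108 and 0.0403). None of these 3 kept its call without the libraries with muscle transcripts (adjusted p = 0.121, 0.172 and 0.374). Eln also lost its call in 13 of 20 fits that each left out 1 library, and reached an adjusted p of 0.105 without Control library 7. Markers of stromal progenitors, which make matrix, summed to 1511 to 2042 CPM in Control and 827 to 1431 in restricted libraries, and 3 of the 6 fell.

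Of 14 regulators of the lysosome 1 rose and 0 fell. It was Rragc, a GTPase that carries amino acid signals to mTORC1 on the lysosome, at 138 ± 7.67 and 163 ± 13.4 CPM (SD, n = 10 each; log2 fold change 0.24 ± 0.054 SE, edgeR adjusted p = 0.00548). Rraga (log2 fold change 0.13), Zkscan3 (-0.13) and Tfec (0.29) were not called (adjusted p = 0.120, 0.139 and 0.378). Of 17 proton pump genes 4 rose and 0 fell, with a median of 0.13 on the log2 scale. Atp6v0e rose by 0.22 and Atp6v0b by 0.20 (adjusted p = 0.00662 and 0.0114). Atp6v1c1 and Atp6v1e1 rose by 0.16 and 0.20 (adjusted p = 0.019 and 0.0225), and both lost the call without restricted library 1 (adjusted p = 0.0731 and 0.0793).

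Of 24 other lysosomal proteins 4 rose and 1 fell, with a median of 0.06 on the log2 scale. Npc2, the gene most like Ctsl, rose from 668 ± 65.9 to 931 ± 167 CPM (SD, n = 10 each), a log2 fold change of 0.45 ± 0.099 (SE, edgeR adjusted p = 0.00438), and its adjusted p was 0.080 without the libraries with muscle transcripts. Naglu rose by 0.19 in log2 units (adjusted p = 0.0412, and 0.102 without restricted library 1), and lost its call in 12 of 20 fits that each left out 1 library. Man2b1, the lysosomal alpha-mannosidase, fell by 0.17 (adjusted p = 0.0393, and 0.106 without Control library 3), and lost its call in 14 of 20 such fits. Most of the other lysosomal enzymes and membrane proteins were not called. By the label, 2 of the 89 genes were higher and 2 lower in libraries marked Yes, namely Rragd and Tfec, and Ctso and Npc1, with Rragd and Npc1 named after their values were seen.

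Of the 26 related genes that the naming rule took and that were called by diet, 17 kept the call without any single library and 12 without the 6 libraries with muscle transcripts. The 12 were Ctsf, Ctsw, Ctla2a, Cstb, Igf2r, Glb1, Lgmn, Mcpt4, Tpsb2, Cma1, Cd74 and Atp6v0e. Of these, Ctsw is not among the 17, since it lost its call in 16 of 20 fits that each left out 1 library. With the RNA integrity number as a term 7 were called, namely Mcpt4, Tpsb2, Cma1, Cd74, Ctla2a, Npc2 and Atp6v0b. All of these fits have fewer libraries than the reported one.

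**Figure D5:**
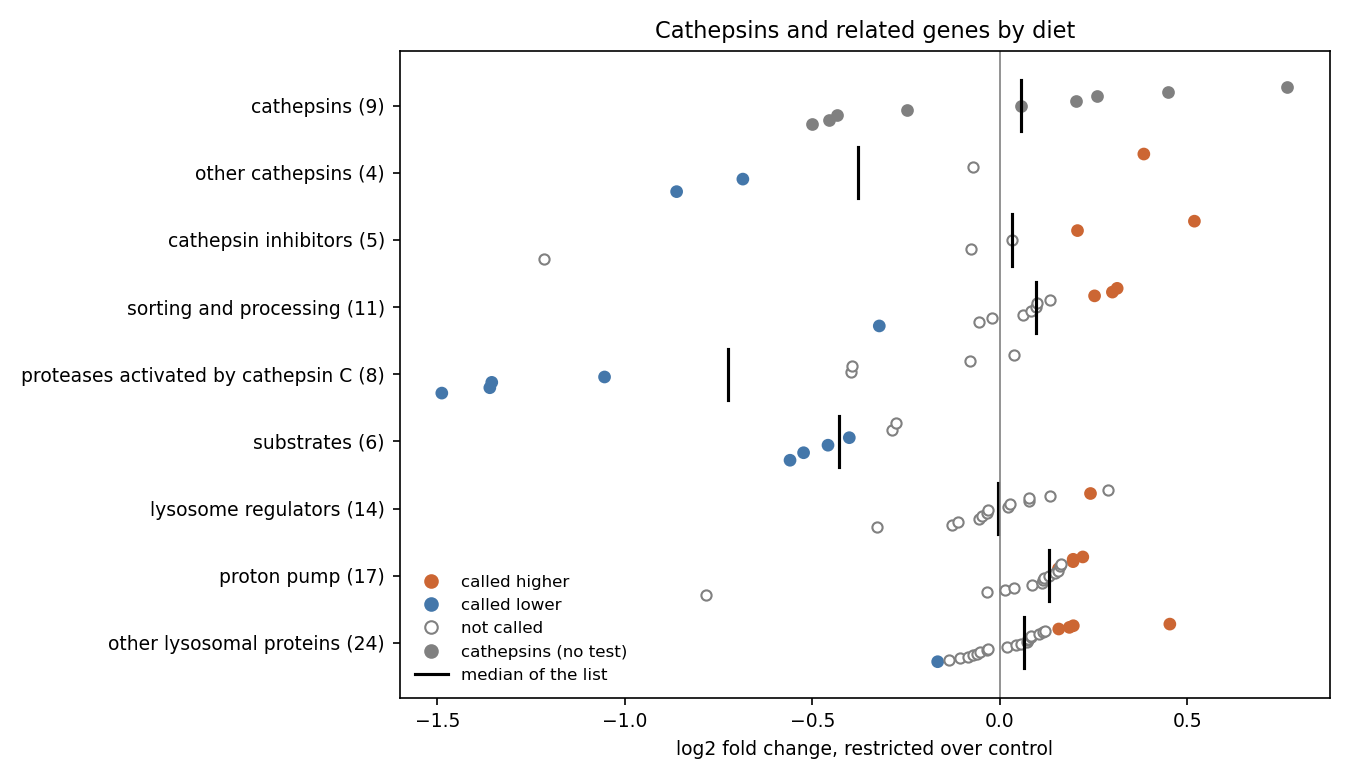
Log2 fold change, restricted over control, of the cathepsins and of the tested genes of 8 related lists, 1 point per gene, with the number tested beside each list and the list's median as a black bar. The lists named proteases activated by cathepsin C, substrates and other cathepsins have medians below 0 (-0.73, -0.43 and -0.38). The median of the lysosome regulators is -0.005 and that of the proton pump is 0.13.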

How the data were processed

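PolyA RNA of 20 eWAT libraries was sequenced as paired ends. Per the submitters' processing notes, bcl2fastq 4.0.3, STAR, Salmon and GRCm38 were used; no role or order is given, and neither the counting tool nor the strand setting is stated. The authors deposited whole-number counts per gene, and all 20 columns were used. The test was the two-sided quasi-likelihood test of edgeR 4.0.16 (R 4.3.3), with label and diet as terms, TMM factors, the filterByExpr filter by diet at a minimum count of 10 and Benjamini-Hochberg adjustment at 0.05. The filter kept 15986 genes and at least 99.6% of each library's counts. CPM of single genes is scaled to the tested total times the TMM factor, and that of marker sums to the plain total. An SE is the log2 fold change over the square root of its F statistic. The biological coefficient of variation was 0.179. DESeq2 1.42.0, voom in limma 3.58.1, other factors, filters, covariates and sets of libraries were alternatives. Scripts were tested on simulated data. No 2 libraries were duplicates (smallest chi-square per degree of freedom 9.40 over 90 pairs within a diet).

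The members, lists and tests were chosen with earlier results of these data known. Named are all 9 cathepsins, of each related list up to 4 tested members with the smallest p for diet, and the 5 genes most like Ctsd, Ctsl and Ctsc, by r of log2 CPM (prior count 2). A gene that the rule took is not reported here by name.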

Additional observations from a re-analysis of the deposited data

How the results depend on the processing

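All 9 cathepsins kept the sign of their diet difference in all 34 alternatives, and 0 were called by label or by interaction in any alternative run. Calls of cathepsins by diet, 4 higher and 3 lower in the reported fit, went to 2 and 3 with no filter on low counts. With germ cell and epididymis indices in place of the label they were 3 and 2. The RNA integrity number as a term in 17 libraries gave 2 and 1. Libraries marked No alone gave 1 and 2, and those marked Yes alone 0 and 1 (fewer libraries in each). Without the 6 libraries with muscle transcripts they were 1 and 2. The RNA integrity term took the calls of Ctsb, Ctsh, Ctss and Ctsz, while the same 17 libraries without it lost Ctsz alone. Leaving out single libraries gave 3 to 4 higher and 3 to 4 lower: Ctsz lost its call without Control 6 or 7 or restricted 2 or 3, and Ctsk gained one without Control 4 or 9. Related genes, 15 higher and 12 lower, went to 9 and 7 with germ cell and epididymis indices in place of the label, 3 and 4 with the integrity term, 1 and 5 marked No alone, 0 and 4 marked Yes alone and 6 and 6 in the 14 libraries free of muscle transcripts, and ranged over 10 to 16 and 8 to 13 without single libraries.

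All genes called by diet, 2173, went to 1015 with the marker indices, 392 with the integrity term, 1445 in the same 17 libraries without it, 400 marked No alone, 239 marked Yes alone, 927 in the 14 libraries, 1454 with no filter on low counts and 1506 to 2274 without single libraries. Genes called by label, 848, went to 372 at a minimum count of 50 and 709 to 944 without single libraries. The interaction, 0 genes, gave 1 in DESeq2 and 0 to 1 without single libraries. The causes of these shifts were not tested. No pairing by replicate number was seen: the correlation of same-numbered libraries ran from -0.089 to 0.134 over 10 pairs, and 1 pair correlated best with its own number. This check cannot exclude a pairing in the design that left no mark on expression. With the replicate block 1388 genes were called by diet, 2 cathepsins higher and 2 lower, and 7 related genes higher and 10 lower. Depth limits Ctse and Tpsab1, near or below 1 CPM, more than any cathepsin described.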
